A study of Mus musculus with 27 samples.

Results

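Homeostatic microglia genes are the genes that resting microglia, the resident macrophages of the brain, keep at high levels. The 10 followed here were chosen by name, with earlier results of these data known. The deposited table lists them in lower case as p2ry12, p2ry13, tmem119, cx3cr1, sall1, csf1r, selplg, siglech, gpr34 and adgrg1. All 10 were found in the table and were among the 12976 genes that passed a mean of at least 1 FPKM and were tested, where FPKM are fragment counts scaled by gene length and library size.

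The libraries came from female 5xFAD mice, 16 weeks old. Every mouse carried transgenes, among them human APP with the Swedish, Florida and London mutations, driven by the neuronal Thy1 promoter, and no mouse without the transgenes was among them. Vehicle, R33 at 10 mM or R55 at 10 mM was microinjected stereotaxically into the cortex of one hemisphere, and a cortical block was taken from each hemisphere 24 h later. R33 and R55 are small molecules made to stabilise retromer, the endosomal complex that returns cargo from endosomes, and the vehicle held the same DMSO and cyclodextrin without drug. The 27 libraries came from 14 mice: 4 vehicle mice (J, L, M and AH), 5 R33 mice (K, N, O, AD and AE) and 5 R55 mice (P, Q, R, AA and AB). Both hemispheres are among them for 13 mice, and only the injected one for mouse AE. The study's methods state more mice per treatment group than these libraries cover. Libraries held 15932196 to 38077026 fragments, and the members had between 458 and 9775 fragments in a library.

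Microglia settle in the brain before birth and renew themselves there. Their resting state depends on signals from neurons and astrocytes, among them the ligands of Csf1r and Cx3cr1 and TGF-beta, and on transcription factors such as PU.1 and Sall1. Near amyloid plaques many microglia lose part of this programme and take up a disease-associated one, and mechanical injury draws their processes towards the damage through purine receptors. In bulk tissue, fewer microglia and less RNA per microglial cell cannot be told apart.

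The members spanned a wide range of levels. Among the receptors, Csf1r, the kinase receptor for CSF-1 and IL-34 on which microglial survival depends, had the highest mean over the 14 mice, 56.0 ± 13.2 FPKM (SD, n = 14). Cx3cr1, the receptor for the neuronal chemokine fractalkine, followed with 35.2 ± 7.32 FPKM, P2ry12, the ADP receptor that steers processes to injury, with 26.2 ± 4.16 FPKM and Adgrg1, an adhesion receptor also made by neural progenitors and astrocytes, with 21.5 ± 4.96 FPKM. Gpr34, a receptor for lysophosphatidylserine, was at 16.8 ± 3.90 FPKM and P2ry13, another ADP receptor, at 10.8 ± 2.48 FPKM.

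Among the surface proteins that are no such receptors, Selplg, the selectin ligand PSGL-1, was at 29.8 ± 7.31 FPKM and Tmem119, a membrane protein used to tell microglia from other macrophages, at 20.6 ± 5.64 FPKM. Siglech, a sialic acid-binding lectin that signals through the adaptor DAP12, was at 14.1 ± 2.99 FPKM (n = 14 for each). Sall1, the only transcription factor of the group, was lowest with 6.65 ± 0.998 FPKM. From the highest to the lowest of the 10, neighbours in the order differed by less than the larger of their SDs, except Csf1r and Cx3cr1, Siglech and P2ry13, and P2ry13 and Sall1.

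Markers of the other cells of cortex were present as well. Camk2a was the most abundant of 6 excitatory neuron markers with a mean of 991 FPKM over the libraries, Aldoc of 6 astrocyte markers with 437 FPKM, Mbp of 6 oligodendrocyte markers with 576 FPKM and Itm2a of 6 endothelial markers with 28.9 FPKM. Of 10 border macrophage genes and 10 monocyte and neutrophil genes, 2 each reached 1 FPKM on average, and the most abundant were Stab1 with 2.15 FPKM and S100a9 with 2.48 FPKM. Of the 5 red blood cell markers, Alas2 was at 2.56 FPKM and the 4 globin genes were listed at 0 in every library.

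In the annotation of GRCm39, the build of the authors' alignment, P2ry12 (chr3:59123682-59170429) and P2ry13 (chr3:59114539-59118304) lie 5378 bases apart on the same strand, inside Med12l on the opposite strand, which was at 2.57 FPKM. Tmem119 (chr5:113931781-113938577) and Selplg (chr5:113956597-113970705) lie 18020 bases apart, also on one strand. Gpr34 (chrX:13489625-13507116) lies inside Cask on the opposite strand at 10.9 FPKM. Cx3cr1 (chr9:119877749-119898945), Siglech (chr7:55417926-55429195), Adgrg1 (chr8:95701315-95742028) and Sall1 (chr8:89753863-89770823) lie apart from the others, and Sall1 is overlapped on the opposite strand by Gm3134 at 0.864 FPKM. Noncoding genes with no value here also overlap Selplg (Gm71766), Cx3cr1 (Gm33858) and Adgrg1 (Gm30968 and Gm51544) on the opposite strand. Whether the authors' counting used strand is not given in the sources used here, so fragments of genes that overlap on opposite strands cannot be told apart.

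Promoters are shown because 9 of the 10 members varied together between mice. RefSeq promoters on GRCm38.p6, from 250 bases before to 50 bases after a gene's start, were matched for 6 of the 10 members. The motif GAGGAA, the core that PU.1 binds, was searched on both strands and is in capitals (TTCCTC on the other strand). It was in 28.3% of all 32851 promoters and in those of 2 of the 6 matched members, P2ry13 at position -48 and Siglech at position -4 from the start. The share counts promoters, whereas the figure for the members counts genes, so they are not alike. Sall1 and Adgrg1 were matched by multiple promoters, all without the motif. A match describes these letters only. The ADP receptor pair is shown because its members are neighbours and both followed the shared pattern, and Siglech because it holds the motif (P2ry12 at chr3:59262936-59263235 and P2ry13 at chr3:59210833-59211132, both on the minus strand, and Siglech at chr7:55767934-55768233 on the plus strand of GRCm38.p6).
P2ry12: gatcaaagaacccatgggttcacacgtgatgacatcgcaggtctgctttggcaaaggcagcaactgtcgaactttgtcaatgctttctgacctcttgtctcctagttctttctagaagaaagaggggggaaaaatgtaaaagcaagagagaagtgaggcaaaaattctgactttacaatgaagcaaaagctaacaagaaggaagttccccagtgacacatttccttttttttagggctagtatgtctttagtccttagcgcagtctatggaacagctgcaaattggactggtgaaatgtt
P2ry13: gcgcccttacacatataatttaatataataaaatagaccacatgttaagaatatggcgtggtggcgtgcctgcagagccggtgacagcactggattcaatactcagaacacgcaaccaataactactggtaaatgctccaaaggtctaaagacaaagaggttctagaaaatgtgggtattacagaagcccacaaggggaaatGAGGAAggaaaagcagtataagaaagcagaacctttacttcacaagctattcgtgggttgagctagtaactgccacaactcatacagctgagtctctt
Siglech: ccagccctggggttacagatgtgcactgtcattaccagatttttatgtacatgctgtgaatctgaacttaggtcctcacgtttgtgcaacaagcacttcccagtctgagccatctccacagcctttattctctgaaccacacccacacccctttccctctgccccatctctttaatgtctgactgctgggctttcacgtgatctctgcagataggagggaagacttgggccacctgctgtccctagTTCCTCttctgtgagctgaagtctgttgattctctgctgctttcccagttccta

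The mice fell into 2 series by their labels: 9 carried 1 letter (3 per treatment) and 5 carried 2 letters (AH with vehicle, AD and AE with R33, AA and AB with R55). What the letters stand for is not given in the sources used here. Most members were higher in the mice with 2 letters. Tmem119 ran from 24.6 to 29.8 FPKM in these 5 mice, with 24.6 in AH, 28.2 in AD, 24.8 in AE and 29.8 in AA, and AB between them. In the 9 mice with 1 letter Tmem119 had a lowest value of 13.4, a median of 16.9 and a highest of 26.1 FPKM. The series overlapped through mouse R alone, and the other 8 mice with 1 letter were below all 5.

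For Gpr34, the mice with 2 letters were at 18.2 FPKM in AH, 23.3 in AE, 22.9 in AA and 19.6 in AB, with AD between AH and AB, against a lowest of 11.1, a median of 13.7 and a highest of 19.3 FPKM in those with 1. Means were 36.9 ± 3.52 (n = 5) against 25.8 ± 5.56 FPKM (n = 9) for Selplg and 16.8 ± 1.78 against 12.6 ± 2.39 FPKM for Siglech. In the opposite direction, Adgrg1 had a median of 18.3 FPKM in the mice with 2 letters and 20.9 FPKM in those with 1. Thus 9 of 10 members had higher values in the series with 2 letters, and Adgrg1 had lower ones.

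With treatment and hemisphere in the fit and the correlation within mice modelled, limma called 4 of 10 members at an adjusted p-value under 0.05, against 10.4% of all 12976 genes. Tmem119 was higher by 0.59 on the log2 scale (SE 0.113, adjusted p = 0.00258), Selplg by 0.53 (SE 0.116, adjusted p = 0.00763), Gpr34 by 0.47 (SE 0.121, adjusted p = 0.0169) and Siglech by 0.41 (SE 0.109, adjusted p = 0.0189). At an unadjusted p-value under 0.05 the count was 8 of 10 members, against 27.2% of all genes, leaving out Cx3cr1 (0.25, adjusted p = 0.220) and Adgrg1 (-0.26, adjusted p = 0.212). The median over the members was 0.33, and over all genes -0.01. No member had series of mice that did not overlap (0 of 10), against 2.59% of all genes. Without the injected-hemisphere library of AD, Csf1r was called as well (0.45, adjusted p = 0.0204) and Adgrg1 differed by -0.16. Without mouse P or mouse AA, Gpr34 and Siglech were no longer called and 2 members were left, whereas 7 were called without mouse O and 8 without mouse R. With libraries of one mouse taken as separate (no replicate block), 6 members and 19.1% of all genes were called. This comparison was added after the data were seen.

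Markers of other cells moved with the same split, and their part in the members' differences was not tested. The lists were chosen with earlier results of these data known. Of all genes, 10.4% were called in this comparison and 27.2% passed an unadjusted p-value under 0.05. Of 15 pan-myeloid genes 11 were called higher in the series with 2 letters (median 0.61), with Ctss, a lysosomal protease and the most abundant, higher by 0.64. The summed level of this list was 1370 ± 222 FPKM (n = 5) against 872 ± 232 FPKM (n = 9). Of 15 other homeostatic microglia genes 6 were called higher and 1 lower (median 0.28). Of 15 disease-associated microglia genes 8 were called higher (median 0.45), among them Spp1, which encodes osteopontin, by 1.36. All 6 endothelial markers were called lower, with a median of -0.91, and their summed level ran from 51.0 to 69.5 FPKM in the 5 mice with 2 letters and was at least 91.2 FPKM in the 9 with 1. Both tested border macrophage genes were called higher, Pf4 by 0.88 and Stab1 by 0.27, and the list summed to 11.8 ± 2.95 against 4.76 ± 1.31 FPKM. Of 6 astrocyte markers 1 was called, Aldh1l1, higher by 0.45, and of the red blood cell markers Alas2, higher by 0.64. None of 6 excitatory neuron, 6 oligodendrocyte and 2 tested monocyte and neutrophil genes was called by limma, nor passed an unadjusted p-value under 0.05 (0 genes).

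**Figure D1:**
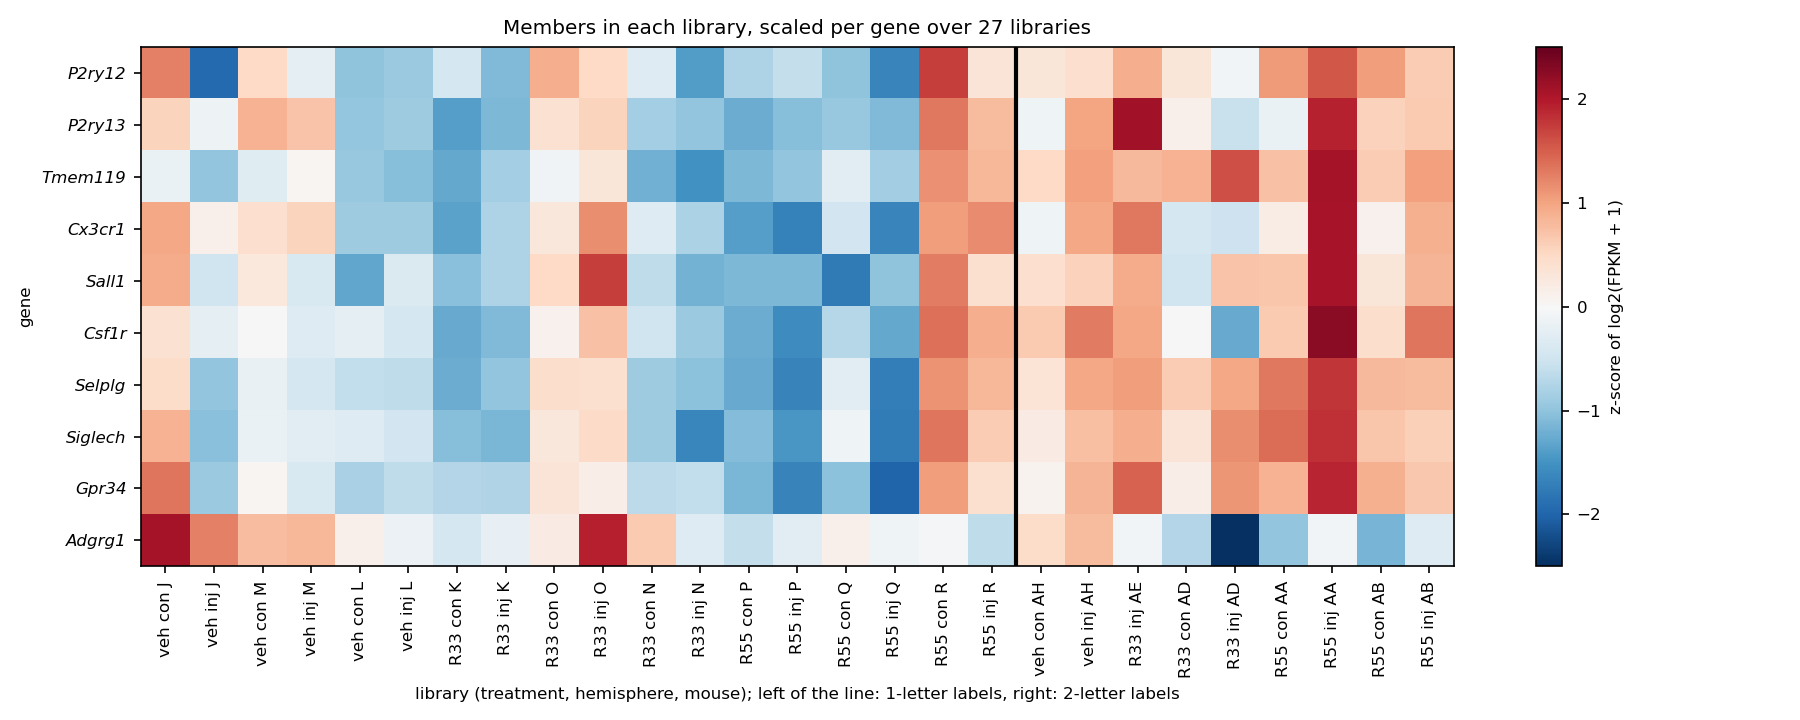
Each member (line) in each of the 27 libraries (column), as log2(FPKM + 1) scaled to mean 0 and SD 1 over the libraries. Columns left of the line are libraries of mice with 1 letter and those right of it of mice with 2. Adgrg1 departs from the pattern that the other 9 members share.

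The injected-hemisphere library of the R33 mouse AD stood apart in another way. Its Adgrg1 value of 9.0 FPKM was the lowest of the 27 libraries, with 15.3 FPKM next, and its Csf1r value of 39.4 FPKM was below the mean, whereas its Tmem119 value of 31.1 FPKM was the second highest after 35.4 FPKM in the injected hemisphere of AA. Of all 27 libraries it also had the highest summed levels of border macrophage (20.3 FPKM), monocyte and neutrophil (15.7 FPKM), astrocyte (1480 FPKM) and red blood cell genes (8.17 FPKM), and its pan-myeloid sum of 1860 FPKM came next to the highest, 1920 FPKM. What set it apart was not tested.

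The 9 members other than Adgrg1 followed each other from mouse to mouse. P2ry12, as the mean of a mouse's hemispheres, was lowest in Q and highest in AA with 32.8 FPKM, and had a median of 26.3 FPKM. Sall1 followed it most closely, from 5.18 to 8.24 FPKM in the same pair of mice. Its Pearson r on log2(FPKM + 1) was 0.96 over 14 mice (permutation p = 2e-05, adjusted over 9 pairs 9e-05) with a Spearman rho of 0.91 (permutation p = 3e-05, adjusted 0.00013). Across the 8 members other than P2ry12 and Adgrg1, r ran from 0.87 to 0.96 and rho from 0.81 to 0.91, and the largest adjusted permutation p was 0.00024 for r and 0.00078 for rho, both for Tmem119. Without AA and Q, the 2 mice farthest from the median of P2ry12, r ran from 0.85 to 0.94. Within the 9 mice with 1 letter it ran from 0.85 to 0.94 as well, with exact permutation p between 0.00053 and 0.0035, and the 5 with 2 letters are too few for a value of their own.

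Adgrg1 did not share this pattern. Its r with P2ry12 was -0.10 (permutation p = 0.74, adjusted 0.74) and its rho -0.26 (permutation p = 0.37, adjusted 0.37) over the 14 mice, -0.04 without AA and Q, and 0.27 within the 9 mice with 1 letter (permutation p = 0.48). Over the 27 libraries the correlation of each member with the mean of the others was 0.041 for Adgrg1 and between 0.817 (Tmem119) and 0.924 (Cx3cr1) for the other 9. As a description, since hemispheres of one mouse share their source, genes much like the mean of the members over the 27 libraries were Laptm5 (r 0.954), Itgb2 (0.941), Lpcat2 (0.941), Cd84 (0.937), Itgb5 (0.934), Havcr2 (0.922), Gusb (0.920), Mpeg1 (0.916) and Cd37 (0.914).

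**Figure D2:**
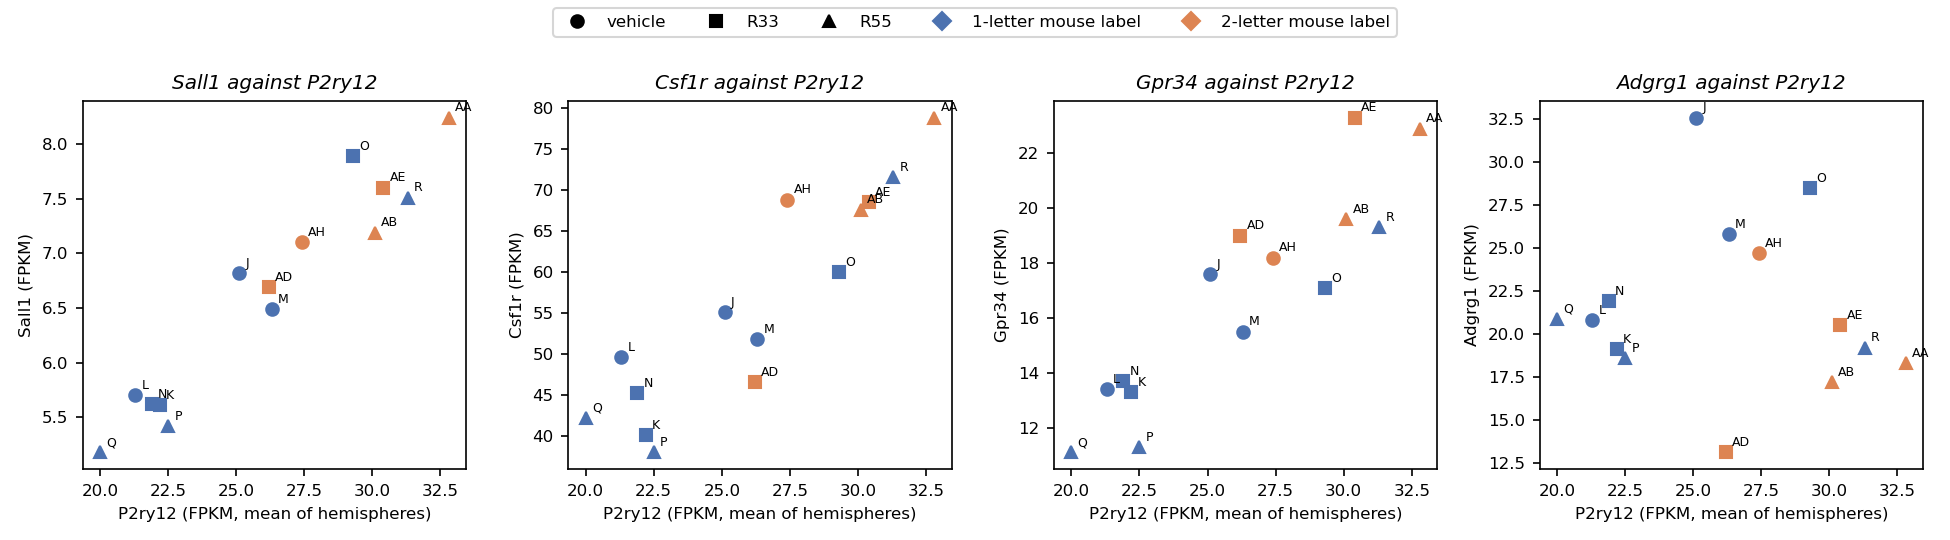
Sall1, Csf1r, Gpr34 and Adgrg1 (vertical axes, FPKM) against P2ry12 (horizontal axis, FPKM), each point a mouse as the mean of its hemispheres, with axes that do not start at 0. The shape gives the treatment and the colour the number of letters in the mouse label. Adgrg1, with r -0.10, shows no common line with P2ry12, while Sall1 has r 0.96.

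R55 was given to ask what a retromer stabiliser does to the transcriptome of 5xFAD cortex. Adgrg1 was the member with the largest difference between R55 and vehicle mice, and it was lower with R55. In the vehicle mice Adgrg1 was at 29.1 FPKM in the injected hemisphere of J, 25.9 in M and 25.8 in AH, with L lowest, and at 36.0 FPKM in J, 25.6 in M, 21.6 in L and 23.6 in AH contralaterally. In the R55 mice it was at 19.3 FPKM in the injected hemisphere of P, 20.5 in AA, 20.3 in Q, 17.6 in R and 19.2 in AB, and at 17.8, 16.1, 21.6, 20.8 and 15.3 FPKM in the contralateral ones. By mouse, 4 of 5 R55 mice were below all 4 vehicle mice. Q at 20.9 FPKM and the vehicle mouse L at 20.8 FPKM overlapped, and J was high in both hemispheres. Means were 18.8 ± 1.37 FPKM (n = 5) with R55 and 25.9 ± 4.89 FPKM (n = 4) with vehicle, a difference of -27.4%.

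No member passed the test between R55 and vehicle. On the log2(FPKM + 1) scale, which understates differences of low genes, Adgrg1 differed by -0.43 (SE 0.149, 95% confidence interval -0.737 to -0.123, limma adjusted p = 0.545). This fit, like those of R33 and of R55 against R33, took the hemispheres of a mouse as separate libraries. Such hemispheres correlated, so these SEs and intervals can be too narrow. With the replicate block by mouse the outermost bounds of the members were wider for R55 against vehicle. limma called 0 of 10 members, against 0.00771% of all genes, which is the calcium release channel gene Ryr2 alone (-0.50). At an unadjusted p-value under 0.05 the count was 1 member, Adgrg1, against 8.45% of all genes. Adgrg1 passed an unadjusted p-value under 0.05 in 13 of 13 alternatives, with a smallest limma adjusted p of 0.0847. With a mouse left out it passed in 13 of 14 fits. Without the vehicle mouse J Adgrg1 differed by -0.32 and did not pass an unadjusted p-value under 0.05. Without the R33 mouse AD the SE was 0.108 and the adjusted p 0.0746. The mice of the treatments did not overlap for 0 of 10 members, against 2.44% of all genes. The median over the members was 0.02 and over all genes 0.03, and 7 members had higher and 3 lower values with R55. With the label series in the fit 4 were higher and 6 lower, and in the mice with 1 letter 2 were higher and 8 lower. Astrocytes also make Adgrg1. All 6 astrocyte markers had higher values with R55 than with vehicle (median 0.17, summed 1030 ± 185 against 911 ± 218 FPKM), 1 of them, Aldh1l1, at an unadjusted p-value under 0.05. All 6 oligodendrocyte markers (median 0.13) and Alas2 (0.55, unadjusted p-value under 0.05) were higher as well, the oligodendrocyte markers in the contralateral hemisphere only. The part of these cells was not tested.

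The other purine and lipid receptors and surface proteins overlapped between R55 and vehicle. P2ry12 in the vehicle mice J, M, L and AH was at 17.7, 24.6, 21.5 and 27.8 FPKM in the injected hemisphere and at 32.5, 28.1, 21.2 and 27.1 FPKM in the contralateral one. In the R55 mice P, AA, Q, R and AB it was at 22.9, 34.3, 18.7, 27.3 and 28.9 FPKM and at 22.1, 31.3, 21.2, 35.4 and 31.2 FPKM. The groups overlapped in both hemispheres, with Q low and AA high on both sides. The fit gave 0.11 (SE 0.119, interval -0.131 to 0.359, limma adjusted p = 0.739).

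Tmem119 had the largest positive difference. In the injected hemisphere of the vehicle mice it was at 14.9 FPKM in J, 14.6 in L and 26.4 in AH, with M between J and AH, and in the contralateral one at 18.9 FPKM in J, 18.1 in M and 22.7 in AH, with L lowest. In the injected hemisphere of the R55 mice it was at 14.9 FPKM in P, 35.4 in AA, 15.4 in Q and 26.4 in AB, with R between Q and AB. Contralaterally P, AA, Q, R and AB were at 14.3, 24.2, 18.3, 27.2 and 23.6 FPKM. Mice with 2 letters were high in both groups, as was R, and the groups overlapped. The difference was 0.22 (SE 0.178, interval -0.149 to 0.581, limma adjusted p = 0.684), and 0.13 with the label series in the fit.

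Csf1r (chr18:61229714-61266535 on GRCm39), whose end overlaps Hmgxb3 on the opposite strand at 9.96 FPKM, was at 59.7 ± 18.4 FPKM with R55 (n = 5) and 56.3 ± 8.63 FPKM with vehicle (n = 4). Its values in the R55 mice ran from 38.0 to 78.8 FPKM. For the remaining members, log2 differences between R55 and vehicle ran from -0.04 for Cx3cr1 to 0.11 for Selplg. Their ligands and signalling partners gave 0 called of 19 tested genes by limma and 1 at an unadjusted p-value under 0.05, Hcst, the DAP10 adaptor gene, at 1.77 ± 0.618 against 1.20 ± 0.233 FPKM (0.32). Cx3cl1, the fractalkine gene, was at 282 ± 9.78 FPKM with R55 and 280 ± 33.7 FPKM with vehicle.

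**Figure D3:**
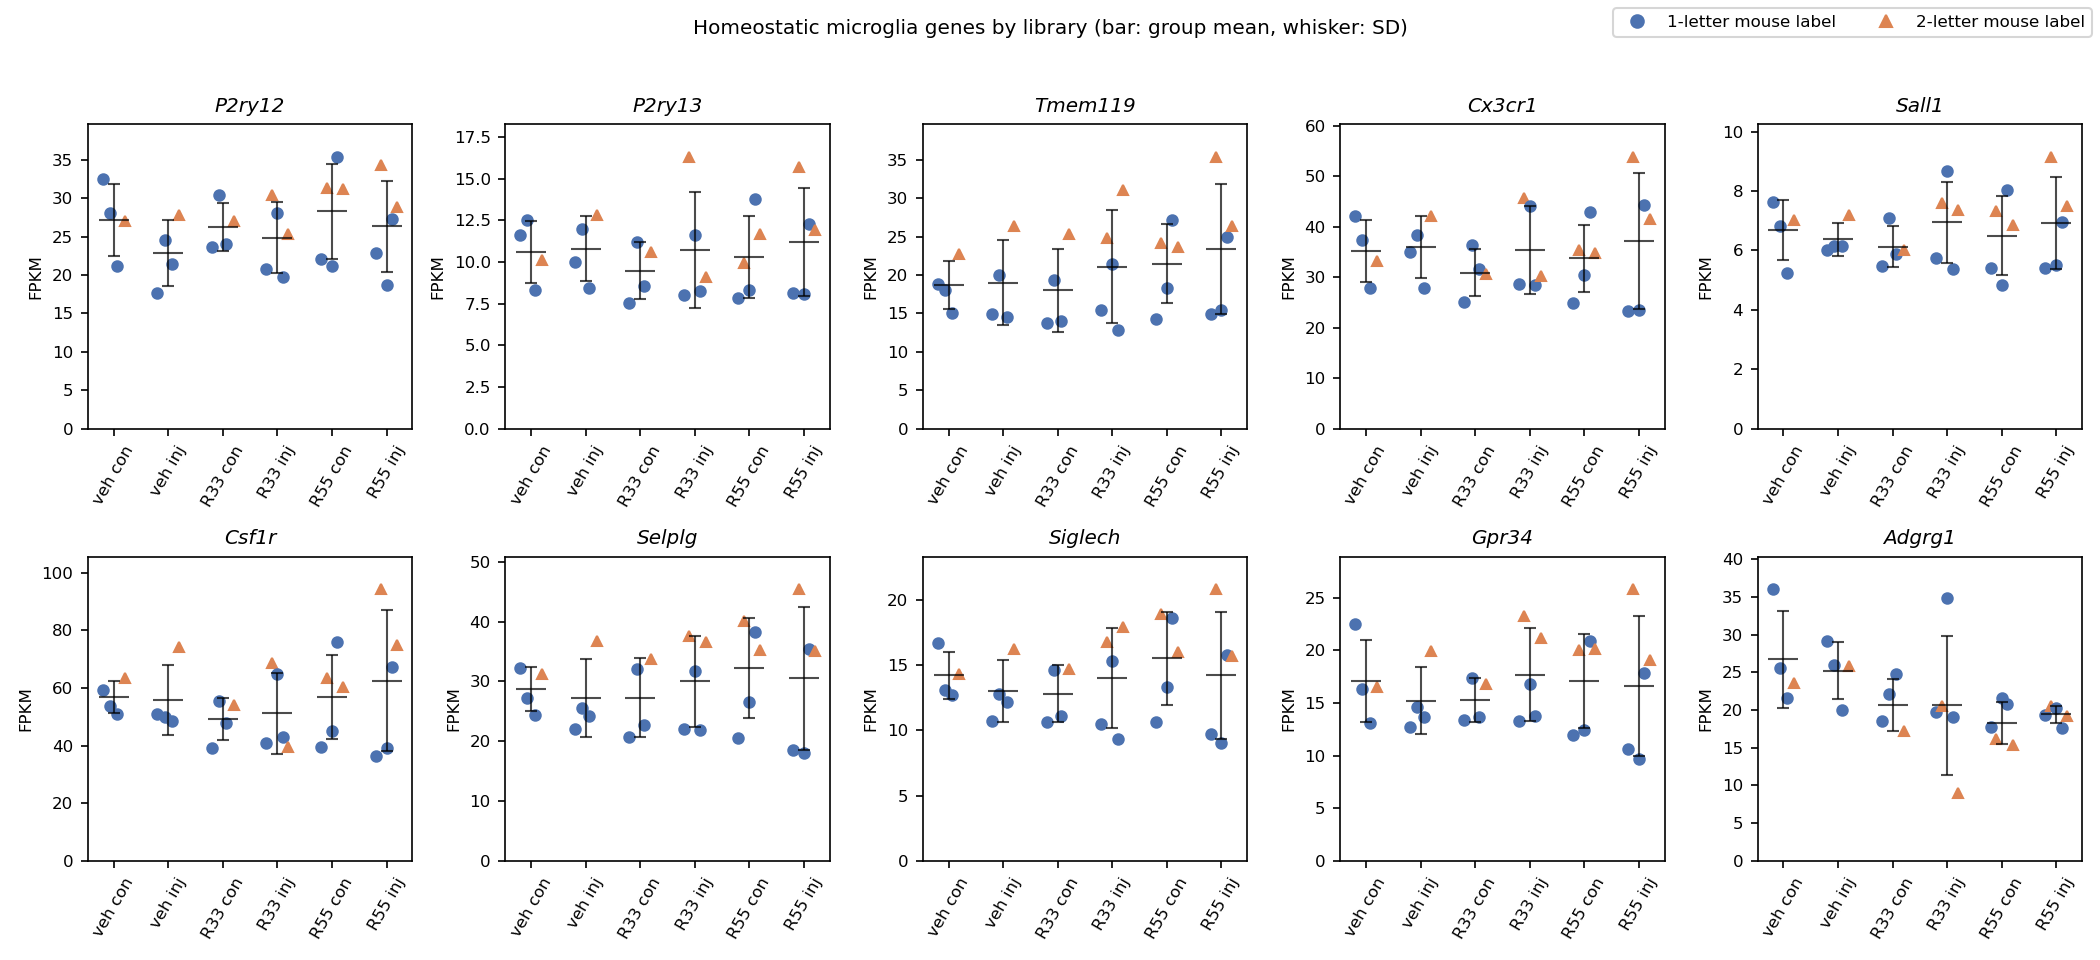
FPKM of each member in each library (points), grouped by treatment and hemisphere (veh, vehicle; inj, injected; con, contralateral), with the group mean (bar) and SD (whisker) and axes from 0. Triangles are mice with 2 letters. Adgrg1 has its highest library, 36.0 FPKM, in a vehicle mouse and its lowest, 9.0 FPKM, in an R33 mouse.

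R33 was compared with the same vehicle mice, so its differences share their controls with those of R55. Adgrg1 again had the largest difference. In the R33 mice K, AE, O, N and AD it was at 19.7, 20.5, 34.8, 19.1 and 9.0 FPKM in the injected hemisphere, and in K, O, N and AD at 18.5, 22.1, 24.8 and 17.2 FPKM in the contralateral one. O was high and AD low on the injected side, and 3 of 5 R33 mice were below all vehicle mice. Means were 20.6 ± 5.52 FPKM (n = 5) against 25.9 ± 4.89 FPKM (n = 4).

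By limma 0 of 10 members were called for R33 against vehicle, as were 0% of all genes. At an unadjusted p-value under 0.05 the count was 1 of 10, Adgrg1, against 5.87% of all genes. It differed by -0.36 (SE 0.153, interval -0.678 to -0.0491, limma adjusted p = 0.834). This passed an unadjusted p-value under 0.05 in 8 of 13 alternatives. It did not pass with the replicate block by mouse (-0.36, SE 0.176, interval -0.723 to 0.00067), in the mice with 1 letter (-0.19) or without the injected-hemisphere library of AD (-0.23). Mice with R33 and vehicle did not overlap for 0 of 10 members, against 0.709% of all genes. The other 9 members ran from -0.18 for Csf1r to 0.04 for P2ry12, with 4 of the 10 higher, 6 lower, and a median of -0.02 beside 0.02 over all genes. With the label series in the fit, and also in the mice with 1 letter, 1 was higher, P2ry12, and 9 were lower. All 6 oligodendrocyte markers (median 0.26) and 5 of 6 astrocyte markers (median 0.21) had higher values with R33, with Aldh1l1 (0.31) at an unadjusted p-value under 0.05, and Alas2 was higher by 0.39. Their part was not tested. P2ry12 in K, AE, O, N and AD was at 20.8, 30.4, 28.1, 19.7 and 25.3 FPKM in the injected hemisphere, and Tmem119 at 15.5, 24.8, 21.5, 12.8 and 31.1 FPKM. Both overlapped the vehicle mice, with N and K low in both genes.

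R55 and R33, given at the same dose and sampled at the same time, were compared directly. Hemispheres of a mouse were again taken as separate libraries. For Adgrg1 the difference was -0.07 with a 95% interval of -0.363 to 0.232, and for Tmem119 0.19 with an interval of -0.166 to 0.542. The largest difference was that of Csf1r, 0.21 (interval -0.116 to 0.526), with 59.7 ± 18.4 FPKM under R55 and 52.1 ± 11.7 FPKM under R33 (n = 5 each). Its size and rank depended on single mice and libraries. It ran from 0.09 to 0.35 with a mouse left out and was 0.03 in the mice with 1 letter. Without the injected-hemisphere library of AD it was 0.16, below Tmem119 at 0.27, Siglech at 0.17 and, in size, Adgrg1 at -0.20. By limma 0 of 10 members were called, as were 0% of all genes. The count at an unadjusted p-value under 0.05 was 0 of 10, against 1.15% of all genes. With a mouse left out, 1 fit each passed an unadjusted p-value under 0.05 for Adgrg1 (-0.24 without AD, adjusted p = 0.482) and for Csf1r (0.35 without P). The mice did not overlap for 0 of 10 members and 0.0848% of all genes. The median was 0.08 over the members and 0.00 over all genes, with 8 members higher and 2 lower under R55. The members' median ran from 0.01 to 0.08 over the alternatives and from -0.01 to 0.18 with a mouse left out. In the mice with 1 letter, Adgrg1, Cx3cr1, Gpr34, P2ry12 and Sall1 were lower under R55 and the other members higher. Of 15 pan-myeloid genes 14 had higher values under R55 (median 0.04). All 6 oligodendrocyte markers had lower ones (median -0.11), and the part of these cells was not tested. Over the 10 members the lowest interval bound was -0.36, that of Adgrg1, and the highest 0.54, that of Tmem119.

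**Figure D4:**
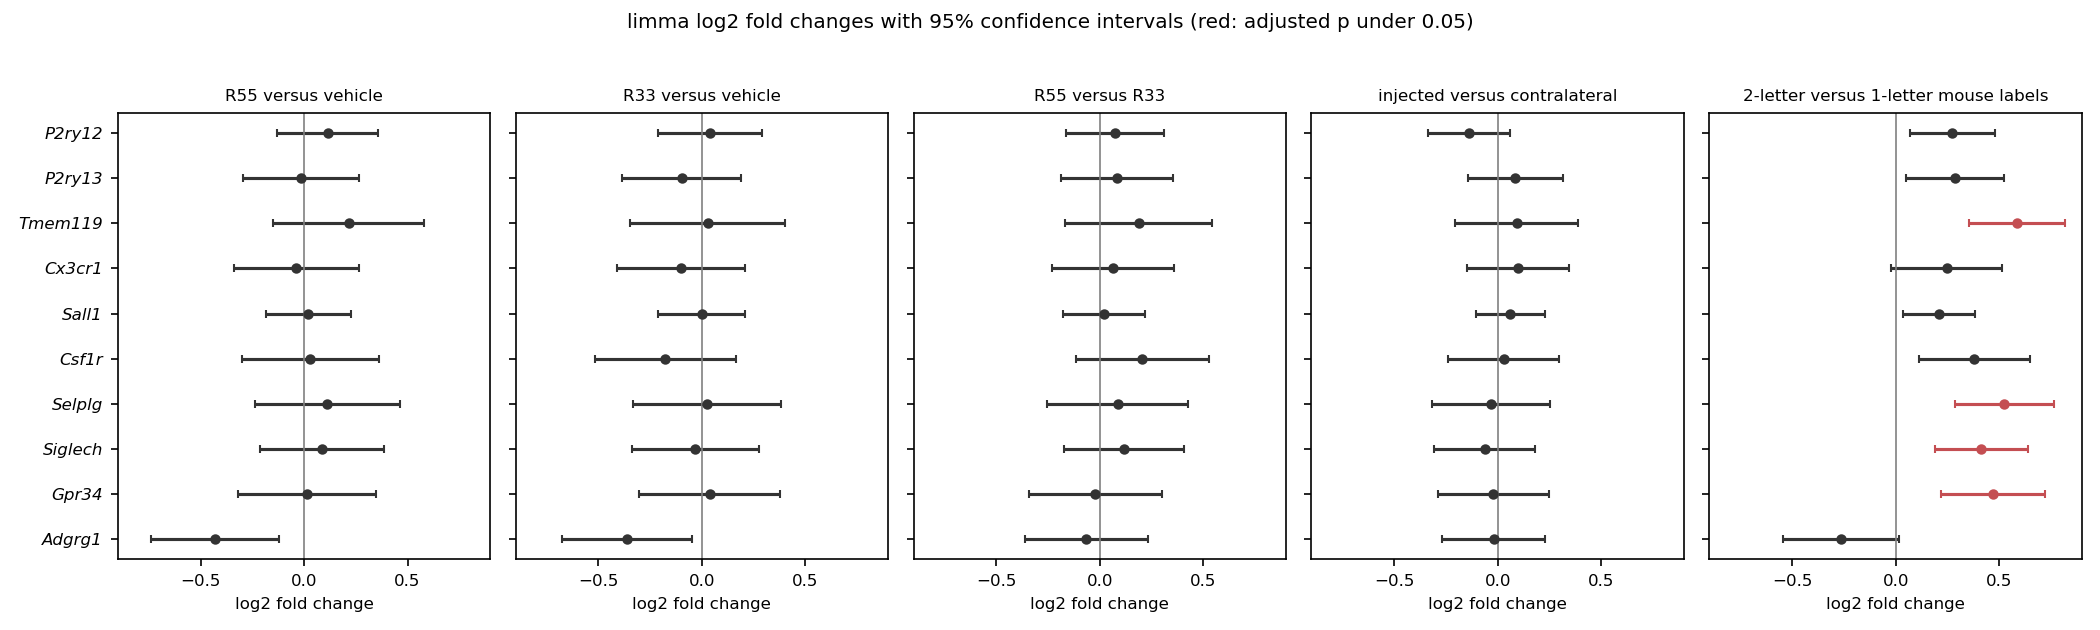
limma log2 fold changes of the 10 members on the log2(FPKM + 1) scale (points) with 95% confidence intervals (lines) in 5 comparisons, red where the adjusted p-value was under 0.05. Only the comparison of the label series has red points, those of Tmem119, Selplg, Gpr34 and Siglech. The other comparisons took the hemispheres of a mouse as separate libraries.

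The injection itself was followed by comparing hemispheres. P2ry12, through which microglia sense ADP from damaged cells, was lower in the injected hemisphere in 9 of 13 mice, with a log2 ratio of injected to contralateral FPKM of -0.88 in J, -0.19 in M, 0.02 in L and 0.03 in AH with vehicle. With R33 the ratios were -0.18 in K, -0.11 in O, -0.29 in N and -0.10 in AD, and with R55 0.05 in P, 0.13 in AA, -0.18 in Q, -0.38 in R and -0.11 in AB. J had by far the lowest ratio, and all 4 R33 mice were below 0. The fit without the mouse as a term gave -0.14 (SE 0.097, limma adjusted p = 1.0). The paired fit, with a replicate block by mouse over 13 mice, gave -0.16 (SE 0.0641, interval -0.299 to -0.0265, limma adjusted p = 0.711), which passed an unadjusted p-value under 0.05. Without J the unpaired estimate was -0.08, and the paired fit was not repeated without J.

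limma called 0 of 10 members between hemispheres with no block in the fit, as it did 0% of all genes. At an unadjusted p-value under 0.05 the count was 0 of 10, against 3.47% of all genes. With the block 0 genes were called and 795 passed an unadjusted p-value under 0.05, P2ry12 alone among the members. The median over the members was 0.00, as over all genes, with 5 higher and 5 lower. This split was not shared by subsets, since all 10 were lower in the injected hemisphere in the mice with 1 letter (median -0.06) and 8 were higher without J (median 0.04). Selplg and Siglech were each lower in the injected hemisphere in 9 of 13 mice and Sall1 was higher in 9 of 13. Adgrg1 had the widest spread of ratios, from -0.93 in AD to 0.66 in O. Over all treatments together, the 15 pan-myeloid genes all had higher values in the injected hemisphere (median 0.17), among them Ly86 by 0.44 and Aif1, the gene of the microglial marker Iba1, by 0.01. Of these 15, limma called 0 and 0 passed an unadjusted p-value under 0.05. By treatment, 12 of the 15 were higher in vehicle mice (median 0.08), 15 in R33 mice (median 0.37) and 7 in R55 mice (median -0.03). The values of this and the other lists do not use the pairing by mouse, and the R33 group includes AE, which has no contralateral library here. All 6 endothelial markers had lower values in the injected hemisphere over all treatments together (median -0.17). In R55 mice 5 of them were lower and 1 higher (median -0.07). The part of these cells was not tested. Of the 15 disease-associated genes, 9 had higher and 6 lower values in the injected hemisphere over all treatments (median 0.05). Among them Gpnmb, a lysosomal membrane glycoprotein gene, had the one unadjusted p-value under 0.05 (0.25). Of the astrocyte markers 3 were higher and 3 lower (median 0.09). Gfap, the filament protein of reactive astrocytes, had the one unadjusted p-value under 0.05 among these (0.54). The 15 other homeostatic microglia genes were split into 8 higher and 7 lower (median 0.02). Only Crybb1 among them, a crystallin gene, passed an unadjusted p-value under 0.05, and it was lower (-0.28).

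Within single hemispheres the members again stayed short of the test. In the contralateral hemisphere Adgrg1 was at 26.7 ± 6.43 FPKM in vehicle mice (n = 4) and 18.3 ± 2.80 FPKM in R55 mice (n = 5), a log2 difference of -0.51 (limma adjusted p = 0.426), and in the injected hemisphere at 25.2 ± 3.77 and 19.4 ± 1.14 FPKM, a difference of -0.35 (adjusted p = 1.0). By limma, 0 of 10 members were called for R55 against vehicle in the contralateral hemisphere, against 0.0231% of all genes (Dhrs7, Fkbp7 and Tsc22d3), and 1, Adgrg1, had an unadjusted p-value under 0.05, against 11.2% of all genes. Markers of other cells differed in this contrast too: all 6 oligodendrocyte (median 0.49) and all 6 astrocyte markers (median 0.27) and Alas2 (0.67) were higher with R55. limma called 0 of these, with 1 of each kind at an unadjusted p-value under 0.05, and their part was not tested. In the injected hemisphere 0 of 10 were called, against 0% of all genes, and 0 passed an unadjusted p-value under 0.05, against 0.825%. The oligodendrocyte markers went the other way there, with all 6 lower (median -0.21), and 5 of 6 astrocyte markers were higher (median 0.13). The difference between hemispheres in the R55 effect was tested itself. By limma 0 of 10 members and 0% of all genes were called, and 0 of 10 members against 1.84% of all genes passed an unadjusted p-value under 0.05. All 6 oligodendrocyte markers had a negative R55 effect by hemisphere (median -0.70), and 0 of them passed an unadjusted p-value under 0.05.

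R33 in the contralateral hemisphere gave lower values than vehicle for all 10 members, with a median of -0.14 beside 0.03 over all genes. The differences ran from -0.34 to -0.04. With a mouse left out the median ran from -0.22 to -0.07. In such fits P2ry12, Tmem119 and Selplg did not stay lower, and reached 0.05, 0.03 and 0.03 at the highest. In the injected hemisphere the median was 0.08 beside 0.01. It ran from -0.02 to 0.09 over the alternatives and from -0.00 to 0.18 with a mouse left out. By limma 0 of 10 members and 0% of all genes were called on either side, and 0 of 10 passed an unadjusted p-value under 0.05, against 2.62% of all genes contralaterally and 1.75% on the injected side. The R33 effect by hemisphere had a median of 0.18 over the members with 9 higher, and -0.01 over all genes. With the replicate block by mouse the median was 0.10 with 7 higher, and without J it was 0.05 with 8 higher. By limma it gave 0 called members and 0% of all genes, and 0 of 10 members with an unadjusted p-value under 0.05, against 0.378%. All 15 pan-myeloid genes also had lower values with R33 contralaterally (median -0.17). Their R33 effect by hemisphere was positive for all 15 in the fit without pairing (median 0.34). All 6 astrocyte (median 0.11) and all 6 oligodendrocyte markers (median 0.24) had higher values with R33 contralaterally. The part of these cells was not tested.

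Injected and contralateral hemispheres were also compared within each treatment. The median over the members was -0.06 in vehicle mice, 0.12 in R33 mice and 0.08 in R55 mice, and 2, 8 and 6 of the 10 had higher values in the injected hemisphere. These values do not use the pairing, and the R33 group includes AE, which has no contralateral library among the 27. With the replicate block by mouse the R33 median was 0.03 with 6 higher, and vehicle and R55 mice kept their medians and counts. The vehicle value rested on J, which had the lowest ratio of the 4 vehicle mice for every member, and without J the median was 0.04 with 9 higher. The R55 value turned as well, to -0.04 with 2 higher without AA and to -0.15 with 0 higher in the mice with 1 letter. In each, limma called 0 of 10 members, as it did 0% of all genes. The count at an unadjusted p-value under 0.05 was 0 of 10 in each, against 1.08% of all genes in vehicle, 2.84% in R33 and 3.66% in R55 mice. All 6 oligodendrocyte markers were higher in the injected hemisphere in vehicle (median 0.31) and R33 mice (median 0.33). In R55 mice all 6 were lower there (median -0.34). Of the 15 disease-associated genes, 7, 15 and 4 had higher values there in vehicle, R33 and R55 mice. These list values do not use the pairing either, and their part was not tested.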

How the data were processed

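RNA of cortical blocks was measured by stranded mRNA sequencing. Alignment of the read pairs by the authors was to GRCm39, by HISAT2. FPKM were deposited, and the tool that counted fragments is not given in the sources used here. Of the deposited values above 0, 100.00% fitted a whole number of fragments to within 0.01. Of 32 libraries in the table, 5 had no entry in the list of 27 samples and were not used here. Treatments and hemispheres came from the labels, and age, sex, dose and time from the study's methods.

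The 12976 genes whose mean over 27 libraries reached 1 FPKM were tested with limma 3.58.1 in R 4.3.3 on log2(FPKM + 1). The prior variance followed intensity, and p-values were adjusted by Benjamini-Hochberg. One fit had treatment and hemisphere as additive terms, another the 6 groups. Neither had a term for the mouse, and the replicate block by mouse was an alternative. The study used a count test. Here FPKM were tested as deposited, and voom on recovered fragments served as an alternative. Hemispheres pair by mouse: deviations from group means correlated by 0.394 on average within a mouse (-0.0787 to 0.648, n = 13). Between mice of a treatment the value was -0.114. Subtracting the group means pulls that value below 0, so it is no independent baseline.

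All 10 members are named. From the other lists, the 2 most abundant genes and up to 4 with the smallest p-value in the first 4 contrasts could be named, beside neighbours, up to 5 called genes per contrast and the 10 genes most like the members. The members and lists were chosen with earlier results of these data known. Correlations across mice had two-sided permutation tests, with 100000 resamples for 14 mice and all 362880 pairings for 9. The rest was done in Python 3.11.15 with pandas 2.3.3 and numpy 2.4.6, tests from scipy 1.17.1, and figures from matplotlib 3.10.9.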

Additional observations from a re-analysis of the deposited data

Results flagged for a closer look

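In the injected hemisphere of vehicle mice, Sall1 was at 7.19 FPKM in mouse AH, apart from the other 3 libraries, which lay between 6.02 and 6.15 FPKM. The gap was 0.889 of the group's range. Csf1r stood apart in the same library, with 74.2 FPKM in AH and 48.4 to 51.0 FPKM in the others, a gap of 0.899 of the range. Both gaps passed Dixon's 95% limit for 4 libraries. AH is the vehicle mouse with a 2-letter label. Of 60 groups of a member looked at in this way 2 stood out, and chance marks about 1 in 20. No difference between hemispheres in the effect of R55 or R33 on a member passed the test.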

How the results depend on the processing

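In the 13 comparisons of treatments and hemispheres, 0 members were called by limma under every alternative and with each mouse left out. The members' medians moved by less than 0.28, their SD over mice. That limit is larger than every one of these medians, so it does not show that their signs held. For R55 against vehicle in the injected hemisphere the median of 0.08 ran from -0.08 to 0.21 with a mouse left out. The replicate block by mouse changed no call at an adjusted p-value there, but with it Adgrg1 for R33 against vehicle no longer passed an unadjusted p-value under 0.05. For the label series, a comparison chosen after seeing the data, 4 members were called. Leaving out each mouse gave 2 (without P or AA) to 8 (without R), with 7 without O. Other settings gave 3 with 1 value per mouse to 6 with no replicate block or with the length trend removed, the paired correlation being 0.272. Calls over all genes, 1345, ran from 576 without AB to 1690 without R, and were 741 with 1 value per mouse and 2477 with no replicate block. Adgrg1 against P2ry12 had r -0.10, and 0.27 in the mice with a 1-letter label and 0.02 with treatment means subtracted; the cause was not tested. All-gene calls between R55 and vehicle were 1, and 0 in 6 alternatives, 5 in mice with 1-letter labels only, 12 with only the compared groups, 19 without the injected-hemisphere library of AD (an alternative chosen after seeing the data) and 50 without mouse AD. In the contralateral hemisphere they were 3, from 0 to 18 over the alternatives and from 0 to 90 with a mouse left out, 18 and 90 being without AD's library or mouse. R33 against vehicle gave 0, and 2 with the length trend removed and 1 without a filter, and R55 against R33 gave 0, and 2 without AD. voom on recovered fragments called 1, 0, 0 and 0 genes in the first 4 comparisons. For R55 against vehicle the outermost 95% bounds of the members were -0.74 and 0.58 with libraries taken as separate, and -0.786 (Adgrg1, adjusted p 0.9) and 0.600 (Tmem119) with the replicate block by mouse.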
